A study of Mus musculus with 6 samples.

Results

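The BCL2 family genes decide at the mitochondrion whether a stressed cell survives. Here 10 of them, Bcl2, Bcl2l1, Mcl1, Bax, Bak1, Bok, Bcl2l11, Bid, Bad and Bmf, were followed in cultured mouse cochleae after neomycin. They were picked by their symbols, with no threshold on their counts, among the 24421 symbols of the count table, and all 10 were found. Neomycin is an aminoglycoside that kills hair cells (HCs), the mechanosensory cells of the organ of Corti. Cochleae were taken at postnatal day 2, freed of the stria anlage, modiolus and tectorial membrane, cultured for 12 h, exposed to 1 mM neomycin for 6 h and then kept in medium containing EdU, a label of dividing cells, at 10 μM for the last 5 days. There were 3 control and 3 neomycin-treated samples, each a pool of 6 to 8 wild-type cochleae. The sample labels repeat the same neomycin protocol text for all 6 samples, and the groups follow their treatment entries. The sources used here do not give the strain.

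In the family, pro-survival proteins such as BCL2, BCL-XL (gene Bcl2l1) and MCL1 hold the pore-forming proteins BAX and BAK1 in check. BH3-only proteins such as BIM (gene Bcl2l11), BID, BAD and BMF sense damage, and either bind and block the pro-survival proteins or act on the pore-forming ones directly. Once BAX or BAK1 opens the outer mitochondrial membrane, cytochrome c and DIABLO escape and caspases are activated. Aminoglycoside damage of HCs is known to engage this route. Much of its control lies in protein binding, phosphorylation and turnover, which RNA counts do not measure.

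Total counts ran from 50471116 to 66068108 per sample, and every member except Bok had over 1000 counts in each sample. Values are given as CPM, read counts scaled to the TMM-adjusted library size, as means ± SD with n = 3 unless each sample is listed, in the order of replicates 1, 2 and 3. The test was the quasi-likelihood F-test of edgeR over the 15988 genes with enough counts. A gene passed at a p-value under 0.05 after the adjustment of Benjamini and Hochberg over all of them. Nothing says that the pools came from separate litters or days, so p-values measure only the spread between these samples. In whole tissue, fewer cells of a type and less RNA per cell cannot be told apart. RNA of cell type markers differed between the groups, and cells were not counted in these samples. Of 16 HC markers 15 fell, and the summed level of the 16 was 845 to 973 CPM in control and 262 to 326 CPM after neomycin. Atoh1, a transcription factor of HC formation, was the HC marker that did not pass. Of 8 macrophage markers 3 rose (Cd68, C1qa and C1qb), and the summed level of the 8 was 68.3 to 86.8 CPM in control and 89.6 to 115 CPM after neomycin. With the gene length correction described below only Cd68 of these 8 passed, and C1qb also lost its call without control replicate 1 or 2 or neomycin replicate 2 or 3 (adjusted p up to 0.14). Of 8 neuronal markers 3 fell (Nefl, Nefm and Nefh, the last not without control replicate 1 or neomycin replicate 3, adjusted p up to 0.085), with sums over the 8 of 137 to 218 CPM and 107 to 119 CPM. Of 8 endothelial markers 6 fell, with a median log2 fold change of -1.94 over the 8. Their sum, 282 to 315 CPM in control and 267 to 318 CPM after neomycin, overlapped. Most of that sum was Emcn, which did not pass (252 ± 12 CPM in control and 273 ± 26 CPM after neomycin). Sums also overlapped for the supporting cell markers (1 of 10 rose and 4 fell), the Schwann cell and glial markers (1 of 7 rose and 1 fell) and the mesenchymal markers (2 of 8 rose and 2 fell). The length correction changed these other lists too. With it Myo6 of the HC markers (adjusted p = 0.135) and Mbp of the glial markers (adjusted p = 0.28) no longer passed. Lgr5 and Slc1a3 of the supporting cell markers then passed as higher (adjusted p = 0.0067 and 0.011), as did Col1a2 of the mesenchymal markers (adjusted p = 0.029). Tubb3 of the neuronal markers then passed as lower (adjusted p = 0.033). No marker of these lists was at the floor of 3 counts or fewer throughout a group. The part of these shifts in the results below was not tested.

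Bad was the only member that passed the test, and it was higher after neomycin, 1.28-fold. The other 9 members did not pass, and no member changed by more than 1.5-fold. Among all genes tested 29.0% passed, 12.9% higher and 16.1% lower, and 8.84% passed with a fold change over 1.5. The 1 of 10 members was a smaller share, but 10 genes are too few to tell it from this background. Without adjustment, 3 members (Bad, Bax and Bcl2l11) had a p-value under 0.05, and 0 of these had a fold change over 1.5. DESeq2 and limma-voom each passed 2 members, and each gave 0 with a fold change over 1.5. The 95% interval of the fold change lay inside 1.5-fold in either direction for 10 of 10 members. The median log2 fold change was -0.04 over the members and -0.004 over all genes tested.

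**Figure D1:**
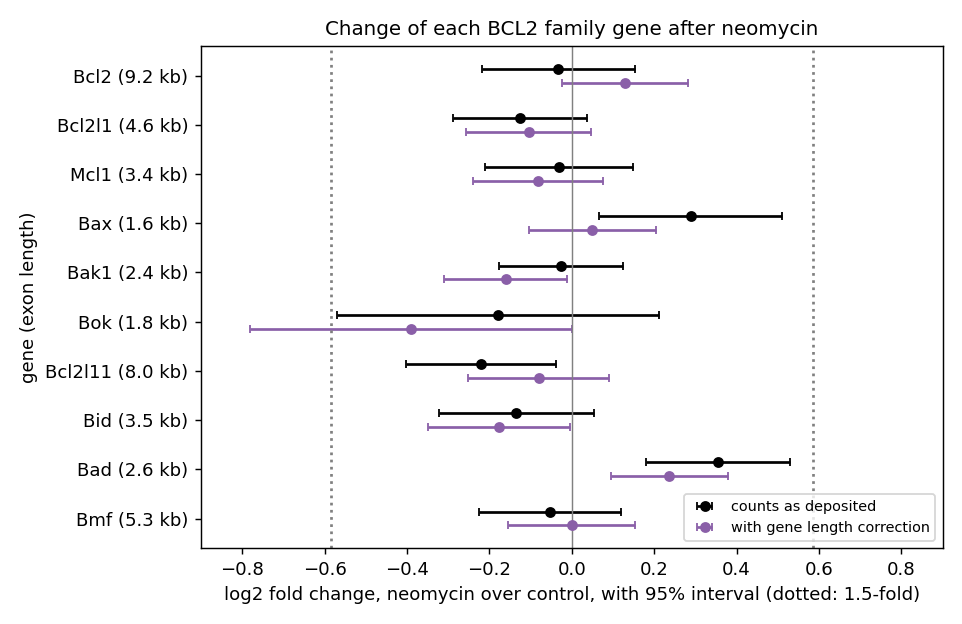
Log2 fold change of neomycin over control for the 10 BCL2 family members, grouped by role, with 95% intervals from edgeR's quasi-likelihood fit, before (black) and after (purple) the gene length correction, and dotted lines at 1.5-fold. Bad is the member whose interval clears 0 by most, at 0.36 before and 0.24 after correction, and Bax moves from 0.29 to 0.05.

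The promoters of Bad, the member that passed, and of Bcl2l11, whose known activator Foxo3 fell (below), are shown so that these genes can be placed in the genome. Bcl2l11 itself did not pass, and a link between Foxo3 and Bcl2l11 was not tested. Each is the 250 bases before the RefSeq start on GRCm38.p6, both on the plus strand, chr19:6941611-6941860 for Bad and chr2:128125788-128126037 for Bcl2l11. Capitals mark the GC box GGGCGG, read on either strand, in Bad, and the FOXO core GTAAACA in Bcl2l11.
Bad: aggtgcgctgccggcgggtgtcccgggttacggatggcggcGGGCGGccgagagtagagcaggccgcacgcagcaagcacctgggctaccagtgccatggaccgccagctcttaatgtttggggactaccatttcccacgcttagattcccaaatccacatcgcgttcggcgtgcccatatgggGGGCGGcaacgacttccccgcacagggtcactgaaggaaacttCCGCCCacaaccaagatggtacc
Bcl2l11: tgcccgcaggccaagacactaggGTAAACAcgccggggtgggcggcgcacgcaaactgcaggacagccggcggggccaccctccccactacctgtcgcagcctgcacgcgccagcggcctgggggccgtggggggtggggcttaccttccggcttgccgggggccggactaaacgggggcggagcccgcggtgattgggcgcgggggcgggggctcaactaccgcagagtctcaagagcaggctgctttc
The Bad stretch held 3 GC boxes. The Bcl2l11 stretch also held GGGCGG in several places, left in lower case, and its FOXO core began 227 bases before the start. Over all 32851 RefSeq windows of 300 bases, which run past the start, GTAAACA occurred on either strand in 3.65% and GGGCGG in 35.7%. Of the 16 windows of the 10 members, 1 (of Bcl2l11) held the FOXO core and 9 held the GC box, the latter from 8 members. Both motifs were chosen after the values were seen, and a match is a description of letters, not of a bound site.

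The pro-survival members did not pass the test, and their groups overlapped. Bcl2, the founding member of the family (chr1:106538178-106714274, minus strand, mm10), measured 63.9, 62.8 and 59.4 CPM in control and 68.6, 58.5 and 54.9 CPM after neomycin. Its highest and its lowest sample were both neomycin-treated. D630008O14Rik, on the opposite strand, shares 558 bases of exon with it and was not analysed here. The log2 fold change was -0.03 (95% interval -0.22 to 0.15, adjusted p = 0.80). Bcl2l1, which encodes BCL-XL (chr2:152780668-152831728, minus strand), measured 92.4, 96.5 and 99.2 CPM in control and 83.3, 84.9 and 95.8 CPM after neomycin. Neomycin replicates 1 and 2 lay below every control sample and replicate 3 lay among them. Its log2 fold change was -0.13 (-0.29 to 0.04, adjusted p = 0.23). Mcl1, which encodes a short-lived protein that binds BAK1 and BIM (chr3:95658788-95663176, plus strand), measured 202, 242 and 226 CPM in control and 208, 218 and 230 CPM after neomycin. The neomycin samples all lay inside the control range. The log2 fold change was -0.03 (-0.21 to 0.15, adjusted p = 0.80).

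Of the pore-forming members, Bax came nearest to the threshold. Bax, which moves from the cytosol to the mitochondrial membrane (chr7:45461697-45466898, minus strand; 192 bases of exon shared with Gm45808, not analysed here), measured 64.1, 72.0 and 83.6 CPM in control and 79.1, 91.3 and 97.8 CPM after neomycin. Control replicate 3 lay above neomycin replicate 1, so the groups overlapped, and the other 2 control samples lay below all 3 neomycin samples. Its log2 fold change was 0.29 (0.07 to 0.51), with an interval that left out 0 and an adjusted p = 0.052 from edgeR that missed the threshold. Bax passed with DESeq2 (adjusted p = 0.029). In edgeR it passed with a term for replicate number, the replicate block (adjusted p = 0.0028). It also passed when control replicate 3 was left out (adjusted p = 0.0084) or neomycin replicate 1 (adjusted p = 0.019). With any other sample left out it did not pass (adjusted p from 0.15 to 0.18).

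Bak1, which sits in the mitochondrial membrane already in healthy cells (chr17:27019810-27029009, minus strand), measured 44.0, 43.7 and 44.3 CPM in control and 45.2, 42.1 and 42.3 CPM after neomycin. The control samples spanned less than the neomycin samples did. Its log2 fold change was -0.03 (-0.18 to 0.12, adjusted p = 0.81). Ggnbp1, on the opposite strand, shares 437 bases of exon with Bak1 and was higher after neomycin, 8.06 ± 0.16 against 13.6 ± 1.7 CPM (adjusted p = 0.00090). The sources used here do not give the strand setting of the counting, so reads of the shared stretch cannot be told apart. Bok, a less studied pore former (chr1:93685660-93695764, plus strand), was the lowest member at 193 to 349 counts a sample. It measured 5.06, 5.33 and 4.31 CPM in control and 3.63, 5.29 and 4.04 CPM after neomycin. Its interval was the widest of the members, with a log2 fold change of -0.18 (-0.57 to 0.21, adjusted p = 0.49).

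Among the BH3-only members, Bad was higher and Bcl2l11 and Bid were lower in every neomycin sample than in every control sample. The groups did not overlap for these 3 of 10 members, against 43.5% of all genes tested. Bad, which is held inactive by phosphorylation and 14-3-3 binding and neutralises BCL2 and BCL-XL (chr19:6941861-6951899, plus strand), measured 43.8, 43.1 and 49.7 CPM in control and 54.2, 60.9 and 59.7 CPM after neomycin. The highest control sample lay below the lowest neomycin sample. Bad rose by 0.36 on the log2 scale (SE 0.08, 95% interval 0.18 to 0.53, adjusted p = 0.0068), a fold change of 1.28 (1.13 to 1.44). It passed with each of the 6 samples left out, with adjusted p from 0.0020 to 0.045. Gpr137, on the opposite strand, has its nearest RefSeq start 353 bases upstream, and other GENCODE exons of it share 524 bases with Bad. It measured 38.3 ± 3.8 CPM in control and 43.3 ± 3.1 CPM after neomycin, and did not pass (log2 fold change 0.17, adjusted p = 0.16). As for Bak1, the strand setting is not given, so reads of the stretch shared by Bad and Gpr137 cannot be told apart. The same limit holds for Bcl2 and Bid, which also share exon with a gene on the opposite strand.

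Bcl2l11, which encodes BIM, a direct activator of BAX and BAK1 (chr2:128126038-128162547, plus strand), measured 29.5, 28.7 and 26.8 CPM in control and 23.2, 24.2 and 25.6 CPM after neomycin. All 3 neomycin samples lay below all 3 control samples. The log2 fold change was -0.22 (-0.40 to -0.04), and the adjusted p = 0.066 from edgeR missed the threshold. Bcl2l11 passed in edgeR with the replicate block (adjusted p = 0.046) and did not pass with DESeq2 (adjusted p = 0.079). Bid, whose product is cut by caspase-8 and then moves to mitochondria (chr6:120891930-120916853, minus strand), measured 22.0, 22.5 and 24.9 CPM in control and 21.2, 21.2 and 20.8 CPM after neomycin. The neomycin samples lay close together, just under the lowest control sample. Its log2 fold change was -0.13 (-0.32 to 0.05, adjusted p = 0.27). Bcl2l13, a relative on the opposite strand, shares 628 bases of exon with Bid and did not pass either (log2 fold change -0.23, adjusted p = 0.051). Bmf, which is tethered to myosin V motors through a dynein light chain (chr2:118528757-118549687, minus strand), measured 120.5, 117.9 and 120.6 CPM in control and 124.2, 119.4 and 102.7 CPM after neomycin. Neomycin replicate 3 stood below the other 5 samples. The log2 fold change was -0.05 (-0.22 to 0.12, adjusted p = 0.66).

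**Figure D2:**
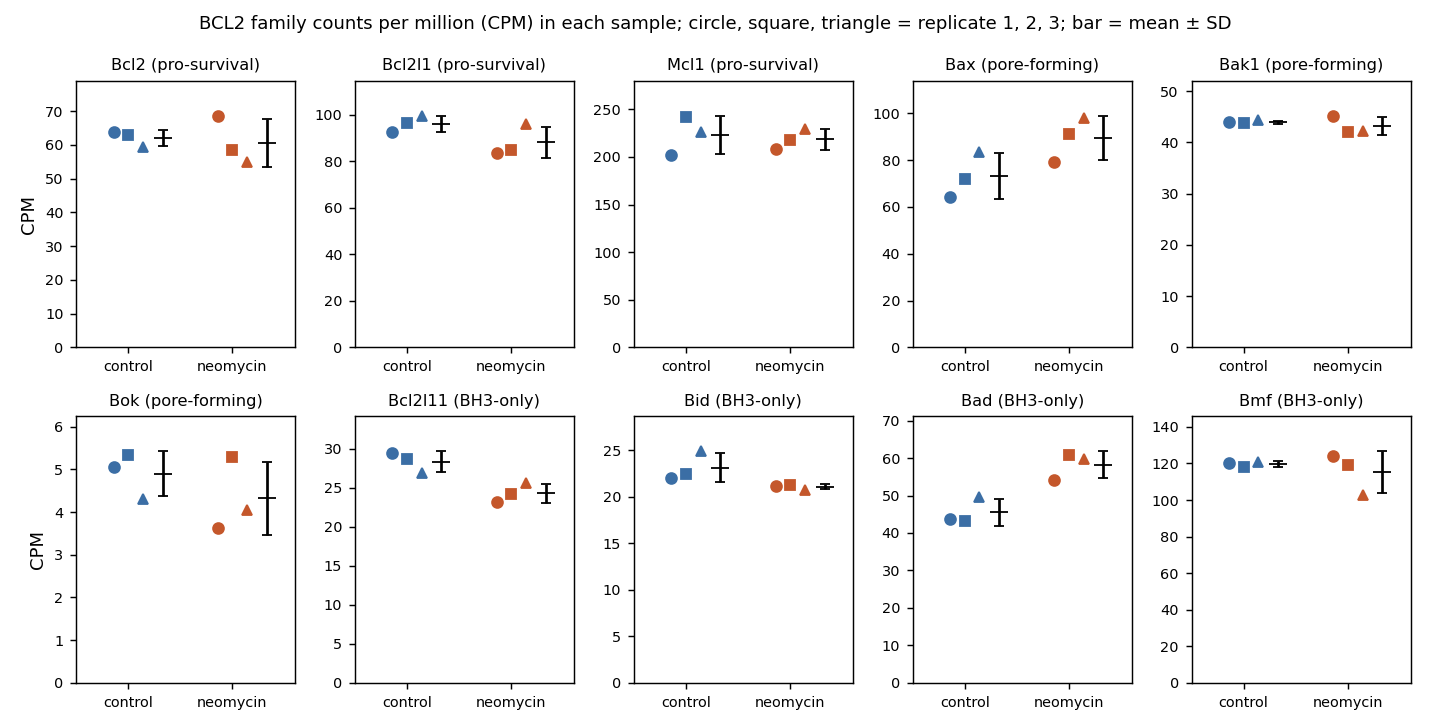
CPM of each BCL2 family member in each of the 3 control and 3 neomycin-treated samples (circle, square and triangle for replicates 1, 2 and 3), with a bar for the mean ± SD. Bad separates upward, from at most 49.7 in control to at least 54.2 CPM, Bcl2l11 and Bid separate downward, and the groups of the other 7 members overlap.

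Gene length moved with the comparison, and several members changed with it. With the genes split into 4 equal groups by exon length, the median log2 fold change was 0.21 in the shortest group (up to 2.62 kb) and -0.18 in the longest (over 6.62 kb). Bax, with 1.58 kb of exon, is the shortest member, and Bcl2, with 9.16 kb, the longest. A correction that removed the trend on exon length from each sample left 23.5% of all genes passing. Under it Bad still passed, with a log2 fold change of 0.24 (0.09 to 0.38, adjusted p = 0.020), and was again the 1 member that did. Bax had 0.05 (-0.10 to 0.20, adjusted p = 0.66) and Bcl2l11 -0.08 (adjusted p = 0.51). Bcl2 turned from -0.03 to 0.13 (-0.02 to 0.28, adjusted p = 0.21). Bak1 had -0.16 (-0.31 to -0.01, adjusted p = 0.11) and Bid -0.18 (-0.35 to -0.003, adjusted p = 0.13). Bok had -0.39 (adjusted p = 0.14), and its interval, -0.78 to -1.1e-05, just left out 0 and no longer lay inside 1.5-fold. Without adjustment, 4 members (Bad, Bak1, Bok and Bid) had a p-value under 0.05 from edgeR with this correction. Whether the length trend arose in the tissue or in the libraries was not tested.

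Levels of different genes were compared per length, as CPM per kb of exon. Mcl1 was the highest member in control with 65.3 ± 5.8 CPM per kb, and Bax followed with 46.5 ± 6.2. Bmf (22.8 ± 0.3), Bcl2l1 (20.9 ± 0.7), Bak1 (18.3 ± 0.1) and Bad (17.8 ± 1.4) formed the middle of the order. Bcl2 (6.78 ± 0.25), Bid (6.51 ± 0.44), Bcl2l11 (3.53 ± 0.17) and Bok (2.66 ± 0.29) were the lowest. In control the sample ranges of Bak1 and Bad overlapped, as did those of Bcl2 and Bid, and those of all other neighbours did not. After neomycin Bad took the third place, at 22.8 ± 1.4 CPM per kb, and the order of the others was as in control. Its range there lay above those of Bcl2l1 and Bak1 and overlapped that of Bmf. Mcl1 gave 70.1% ± 1.6 of the summed pro-survival level in control and 71.2% ± 0.8 after neomycin.

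**Figure D3:**
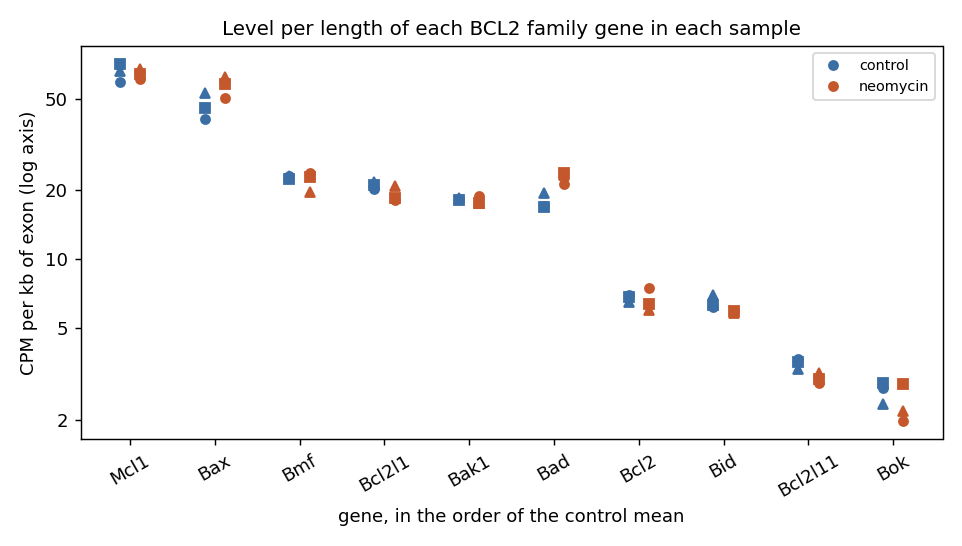
Level per length, in CPM per kb of exon on a log axis, of the 10 members in each control (blue) and neomycin-treated (orange) sample, ordered by the control mean, with circle, square and triangle for replicates 1, 2 and 3. Mcl1 and Bax lead in both groups and Bok is lowest by its mean, while the mean of Bad moves from 17.8 to 22.8.

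Balance between the roles is commonly read as a ratio of BAX to a pro-survival protein, and the RNA ratios per length are given here as a description, with no test. Bax to Bcl2l1 was 2.02, 2.17 and 2.45 in control and 2.76, 3.13 and 2.97 after neomycin, with no overlap. Bax to Mcl1 was 0.687, 0.645 and 0.803 in control and 0.825, 0.909 and 0.923 after neomycin, again with no overlap. Bax to Bcl2 was 5.83, 6.66 and 8.17 in control and 6.70, 9.07 and 10.35 after neomycin, and the groups overlapped. These ratios set the shortest member against longer ones. With the length correction the difference in the log2 ratio went from 0.42 to 0.16 for Bcl2l1, from 0.32 to 0.13 for Mcl1 and from 0.33 to -0.08 for Bcl2, and of these only Bcl2l1 kept groups that did not overlap.

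As a share of the summed level per length of the 10 members, the pro-survival members made up 44.1% ± 1.7 in control and 40.7% ± 0.8 after neomycin. The pore-forming members made up 31.9% ± 1.3 and 34.9% ± 1.2. The BH3-only members made up 24.0% ± 1.1 and 24.4% ± 1.4, with overlapping groups. The first 2 of these shares did not overlap between groups, but the difference in the pro-survival share shrank from -3.38 to -1.48 percentage points with the length correction, and its groups then overlapped. The pore-forming share has no length-corrected value here, and the log2 fold change of Bax went from 0.29 to 0.05 with that correction. Inside the BH3-only role, Bad made up 34.3%, 34.3% and 36.9% in control and 39.5%, 42.9% and 44.9% after neomycin. Bcl2l11 made up 7.35%, 7.26% and 6.33% in control and 5.38%, 5.42% and 6.14% after neomycin. The shares of Bad and Bcl2l11 are likewise given without the length correction.

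**Figure D4:**
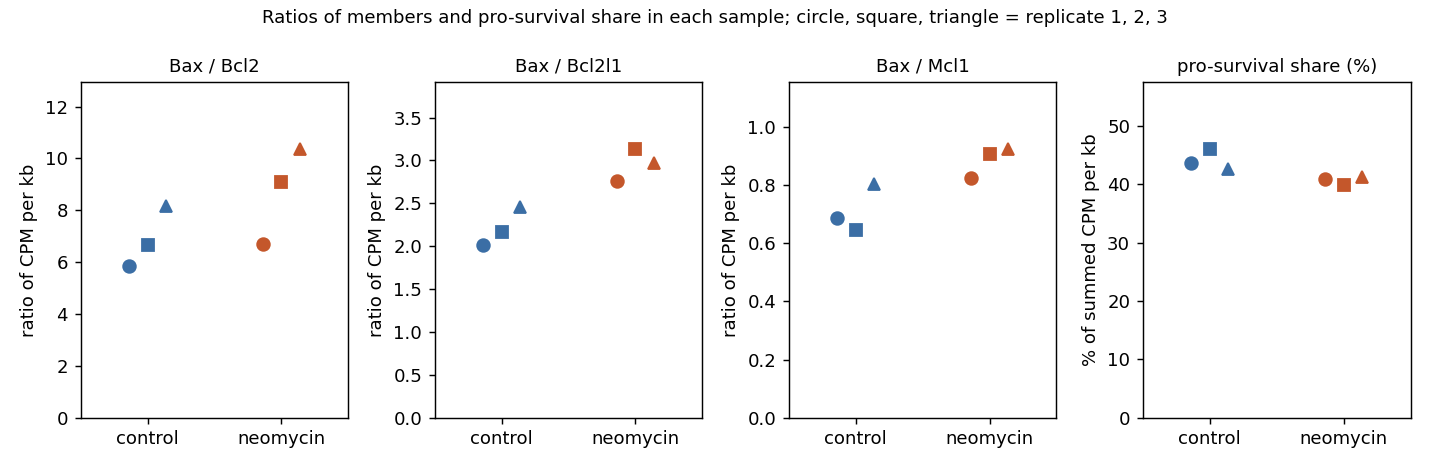
Ratios of Bax to Bcl2, Bcl2l1 and Mcl1 per length, and the pro-survival share of the summed level per length in percent, in each of the 6 samples (circle, square and triangle for replicates 1, 2 and 3), without the length correction. The Bax to Bcl2l1 ratio is at most 2.45 in control and at least 2.76 after neomycin, while the Bax to Bcl2 groups overlap.

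Sets of genes around the family were then read from the same test. Among 14 tested relatives outside the 10 members, 3 rose and 3 fell, with a median log2 fold change of 0.04. Bcl2l15, a little studied relative, measured 25.1, 34.6 and 21.2 CPM in control and 5.46, 9.46 and 14.7 CPM after neomycin. It fell by 1.45 on the log2 scale (SE 0.27, adjusted p = 0.0024), and its groups did not overlap. Bcl2l2, which encodes the pro-survival BCL-w, measured 72.2, 72.2 and 74.5 CPM in control and 58.1, 62.0 and 61.0 CPM after neomycin. It fell by 0.27 (SE 0.07, adjusted p = 0.0093), and by 0.26 with the length correction (adjusted p = 0.0079). Hrk, a BH3-only gene known from neurons, measured 8.64, 9.07 and 8.18 CPM in control and 6.99, 5.27 and 3.52 CPM after neomycin. It fell by 0.71 (adjusted p = 0.020), and this call was lost when control replicate 2, neomycin replicate 2 or neomycin replicate 3 was left out (adjusted p up to 0.075). In the same samples 3 of the 8 neuronal markers fell, as given above.

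Bcl2l12 rose by 0.47 (SE 0.11, adjusted p = 0.0093), a call lost without neomycin replicate 2 (adjusted p = 0.061) and with the length correction (adjusted p = 0.069). Bcl2a1b and Bcl2a1d, copies of a pro-survival gene known from immune cells, rose by 0.63 (adjusted p = 0.036) and 1.195 (adjusted p = 0.045). Their near-identical copies can trade reads, so their values are uncertain, and Bcl2a1d had only 14 to 58 counts a sample. Neither passed with the length correction (adjusted p = 0.31 and 0.16), Bcl2a1b lost its call without control replicate 1 or 2 or neomycin replicate 2 or 3 (adjusted p up to 0.19), and Bcl2a1d without any of the 6 samples (up to 0.18). In the same samples 3 of the 8 macrophage markers rose, and 1 of the 8 with the length correction. Bbc3 and Pmaip1, the p53-induced BH3-only genes PUMA and NOXA, had log2 fold changes of 0.19 (adjusted p = 0.31) and -0.41 (adjusted p = 0.41).

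Of 20 genes for binding partners and turnover, 3 rose and 3 fell. Usp9x, which encodes a deubiquitinase that stabilises MCL1, measured 97.1, 96.5 and 73.9 CPM in control and 54.9, 45.2 and 43.2 CPM after neomycin. All neomycin samples lay below the lowest control sample. It fell by 0.90 (SE 0.11, adjusted p = 0.00020), and by 0.65 with the length correction (adjusted p = 9.2e-05). Huwe1, a ubiquitin ligase of MCL1, fell by 0.42 (adjusted p = 0.012) but not with the length correction (adjusted p = 0.22), and Ywhag, a 14-3-3 protein, fell by 0.27 (adjusted p = 0.016). Each of these calls was lost without control replicate 2 or neomycin replicate 2, and that of Ywhag also without control replicate 1 or neomycin replicate 3 (adjusted p up to 0.064 and 0.083). Dynll1, the light chain that tethers BIM, rose by 0.31 (SE 0.07, adjusted p = 0.0085). Vdac3, an outer membrane channel, rose by 0.33 (adjusted p = 0.014), and Bag1, a BCL2-binding co-chaperone, by 0.26 (adjusted p = 0.044, and 0.86 with the length correction). With the length correction Mtch2 (0.35, adjusted p = 0.014) and Sfn (-0.43, adjusted p = 0.010) also passed. The Vdac3 call was lost without neomycin replicate 2 or 3 (adjusted p up to 0.066), and that of Bag1 without these or control replicate 1 or 2 (up to 0.16).

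Of 9 tested transcription regulators of the family, 0 rose and 3 fell, with a median log2 fold change of -0.18 and -0.08 with the length correction. Foxo3, a forkhead factor known to activate Bcl2l11, measured 20.1, 20.6 and 13.4 CPM in control and 9.25, 7.71 and 6.35 CPM after neomycin. It fell by 1.22 (SE 0.17, adjusted p = 0.00045), and by 1.08 with the length correction (adjusted p = 0.00032). With that correction, 2 more regulators passed, Foxo1, another forkhead factor, which rose by 0.27 (adjusted p = 0.020), and E2f1, which fell by 0.39 (adjusted p = 0.024). Without it neither passed, with log2 fold changes of 0.11 for Foxo1 (adjusted p = 0.34) and -0.32 for E2f1 (adjusted p = 0.058). Jun, an immediate early factor, fell by 0.31 (adjusted p = 0.017), and Nfkb1 by 0.30 (adjusted p = 0.023, and 0.38 with the length correction). Jun lost its call without control replicate 2 or neomycin replicate 1 (adjusted p up to 0.094), and Nfkb1 without control replicate 1 or 2 or neomycin replicate 2 or 3 (up to 0.11). Trp53, which encodes p53, did not pass (log2 fold change -0.04, adjusted p = 0.67).

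Of 13 genes read downstream of the mitochondrial pore, 2 rose and 0 fell. Diablo, whose product relieves inhibition of caspases, measured 66.3, 70.1 and 82.3 CPM in control and 87.5, 94.4 and 99.1 CPM after neomycin. It rose by 0.36 (SE 0.09, adjusted p = 0.0097), and this call was lost when control replicate 2 was left out (adjusted p = 0.051). Casp6, which encodes a caspase, rose by 0.25 (adjusted p = 0.037). The Casp6 call was lost without control replicate 1 or 2 or neomycin replicate 2 or 3 (adjusted p up to 0.13). Cycs, Apaf1 and Casp9, which build the apoptosome, had log2 fold changes of 0.002, -0.12 and 0.09 and did not pass.

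**Figure D5:**
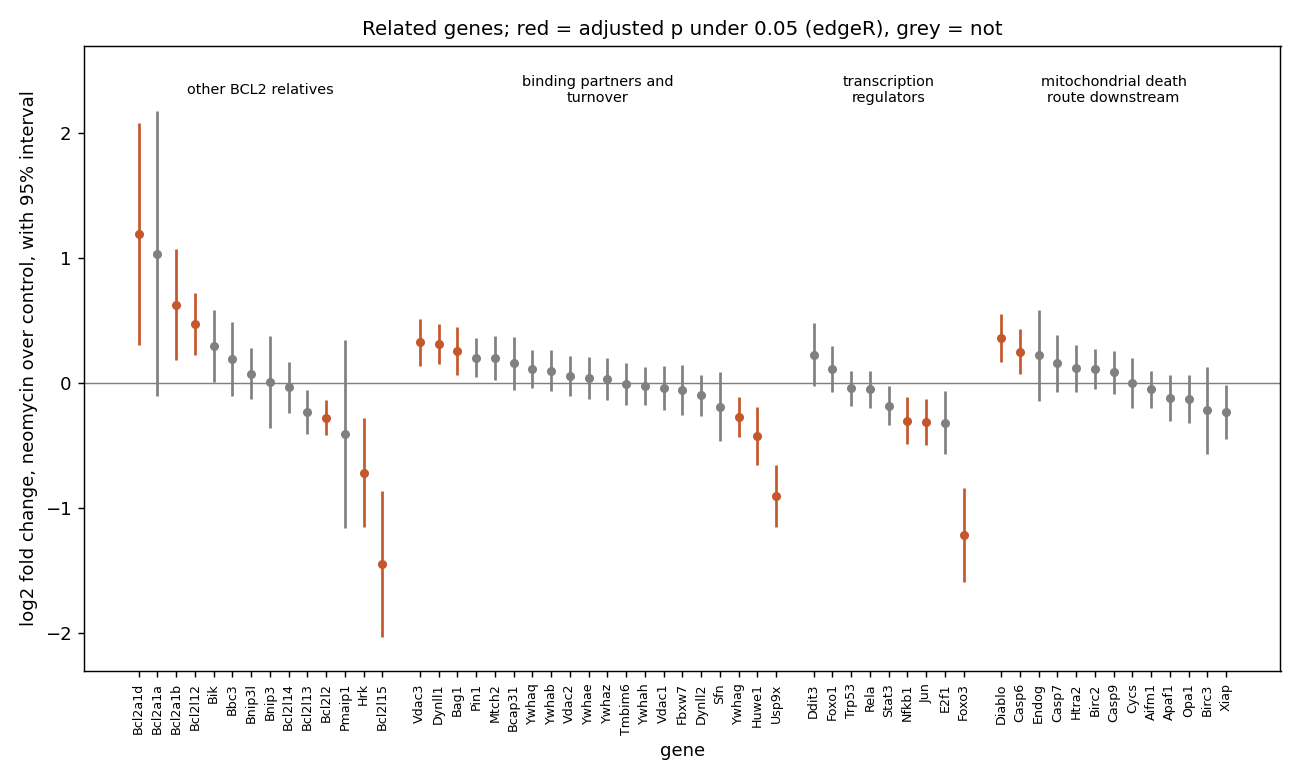
Log2 fold change of neomycin over control for the related genes, by set, with 95% intervals from edgeR's quasi-likelihood fit, in orange where the gene passed and grey where it did not. Bcl2l15 (-1.45), Foxo3 (-1.22) and Usp9x (-0.90) lie farthest to the negative side among the genes that passed.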

How the data were processed

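RNA was measured in 6 pooled samples of mouse cochlear explants, 3 control and 3 neomycin-treated. The authors called bases with Casava 1.8, trimmed reads with trimmomatic 0.23, aligned them with Hisat2 to UCSC mm10 and counted them with HTSeq. They deposited raw read counts for each gene symbol, as integers and not normalized. The strand setting, the handling of multi-mapping reads and the annotation date are not given in the sources used here.

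From these counts, TMM scaling, filterByExpr and the quasi-likelihood test were run in edgeR 4.0.16 (R 4.3.3) over all 15988 tested genes, with no block. The study compared the groups with DESeq2, and its design formula is not given in the sources used here. The fold threshold of 1.5 is the study's. Intervals (95%) used the fitted SE and t distribution, and the code was tested on simulated data. Exon lengths and coordinates came from GENCODE for mm10, with a length for 99.2% of tested genes. The length correction removed a lowess trend (span 0.3) from each sample. Promoters came from RefSeq. Alternatives were DESeq2 1.42.0, limma 3.58.1 (voom), other scalings and filters, a replicate block and each sample left out. Replicates differed by more than counting noise, the chi-square per gene averaging 13.7 to 46.7, so none was treated as a repeat. Plots used matplotlib 3.10.9 (Python 3.11.15).

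The rule for the members uses symbols alone, but the members and gene lists were chosen with earlier results of these data known. All members are named. From each related list, the genes past both thresholds are named, and otherwise the 3 of largest change among those that passed on p alone. Further genes that passed or that stand for a step of the route were named after their values were seen. The ratios and their length-corrected values were also chosen after the data were seen. A gene of the downstream list is not reported here.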

Additional observations from a re-analysis of the deposited data

How the results depend on the processing

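The number of members with an adjusted p-value under 0.05, 1 as reported, was 2 with DESeq2, limma-voom, size factors (RLE), upper quartile scaling, library totals alone, no filter or a filter of 1 CPM in 3 samples, and 1 to 2 with each sample left out. No alternative gave a passing member with a fold change over 1.5. Bax was the added member except with library totals, where it was Bcl2l11 (-0.29, adjusted p = 0.028). All genes passing, 4629 as reported, ran from 2518 (without neomycin replicate 2) to 5341 (without control replicate 3) with a sample left out. Library totals alone gave 1349 higher and 3200 lower genes against 2058 and 2571, with a median log2 fold change of -0.07. The log2 fold change of Bcl2 turned positive with the length correction (0.13) and with that and the replicate block (0.13), and over left-out samples ran from -0.13 to 0.035. That of Mcl1 ran from -0.091 to 0.033 and that of Bmf from -0.11 to 0.026. The sources used here do not say whether replicate numbers pair the samples. Deviations of same-numbered samples correlated at 0.165, 0.0264 and 0.0949, and those of differently numbered samples at -0.129 to 0.0325. These values do not settle whether the samples are paired. With the replicate block in edgeR 6014 genes passed, and 3 members. These were Bad (adjusted p = 0.0020), Bax (adjusted p = 0.0028) and Bcl2l11 (adjusted p = 0.046). Of 160 recomputed member values, 143 kept direction and side of the threshold, 11 passed anew and 6 changed sign, and the cause was not tested.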
